A study of Mus musculus with 2 samples.

Results

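The 10 genes described here belong to the Bcl2 family or act through it: the survival genes Bcl2, Bcl2l1, Mcl1, Bcl2a1a, Bcl2a1b and Bcl2a1d, the effectors Bax and Bak1, and the BH3-only genes Bcl2l11 and Bbc3. They were taken by symbol from a table of 32285 gene rows, all 10 had a row, and all 10 had UMIs in the kept cells of both libraries. They were read by cell class within each library and, in erythroid cells of the library labelled p180, by the share of a cell's UMIs that came from haemoglobin genes. A UMI (unique molecular identifier) stands for 1 captured RNA molecule.

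As background, Bcl2 proteins decide at the outer mitochondrial membrane whether a cell releases cytochrome c and activates caspases. Bax and Bak1 form the pore, the survival proteins hold them and their activators in check, and BH3-only proteins such as Bim (from Bcl2l11) and Puma (from Bbc3) bind the survival proteins through a short helix, the BH3 domain. Blood lineages rely on different survival members: mouse work ties Bcl-xL (from Bcl2l1) to the survival of late erythroid cells, Mcl1 to neutrophils and many progenitors, and Bcl2 to mature lymphocytes.

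The series compared livers of chimaeric mice in which Hhex, a gene needed for liver formation, was knocked out in the host embryo and tetraploid (4N) embryonic stem cells marked with tdTomato were injected at the blastocyst stage. By the titles, 1 liver was taken at postnatal day 180 (p180) and 1 at an embryonic stage (E18.5). Both carried the knockout and the injected 4N cells, so no library here is from a diploid or unmanipulated liver. Each label has 1 liver and 1 library, made with droplet 3′ chemistry, so no difference between them has a replicate check and no test could be run. The gene table holds 0 tdTomato rows, so cells of host and of 4N origin were not separated, and haematopoietic and endothelial cells may be of either origin.

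Short stretches of the coding sequences of these genes are shown here. In the coding sequence of 7 of the 10 genes there is 1 match to the core of a BH3 domain, searched as a leucine codon, any 3 codons, a glycine or alanine codon and an aspartate codon. This core is no mark of the family by itself, since 23.9% of 21584 mouse coding sequences hold at least 1 match. The 9 codons shown start with the 6 of the match, and those after them were not part of the search. They are shown because the BH3 helix is a part through which proteins of the family bind each other. The capitals mark the glycine or alanine codon and the aspartate codon, read 5′ to 3′ on the coding strand.
Bcl2: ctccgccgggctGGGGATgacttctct
Bcl2l1: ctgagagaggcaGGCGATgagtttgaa
Mcl1: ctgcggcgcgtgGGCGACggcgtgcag
Bax: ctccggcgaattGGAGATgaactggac
Bak1: cttgctctcatcGGAGATgatattaac
Bcl2l11: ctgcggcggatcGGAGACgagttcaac
Bbc3: ctgcggcggatgGCGGACgacctcaac

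On the GRCm38 build (mm10, the build named in the submitters' processing notes; GENCODE M21 annotation) each stretch lies within 1 coding exon. They are at chr1:106712575-106712601 on the minus strand for Bcl2, chr2:152829697-152829723 on the minus strand for Bcl2l1 and chr3:95659436-95659462 on the plus strand for Mcl1. Those of the effectors are at chr7:45465997-45466023 for Bax and chr17:27022531-27022557 for Bak1, both on the minus strand. Those of the BH3-only genes are at chr2:128147150-128147176 for Bcl2l11 and chr7:16313773-16313799 for Bbc3, both on the plus strand. Among these 7, Bbc3 has an alanine codon where the other 6 have a glycine codon.

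The 3 Bcl2a1 genes have 0 matches to that core and are near-identical copies on chromosome 9. Their first 60 coding bases are shown because they hold 6 of the 12 positions, of 516 coding positions, at which the 3 copies are not all alike. The capitals mark those positions.
Bcl2a1a: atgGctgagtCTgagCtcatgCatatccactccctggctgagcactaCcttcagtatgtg
Bcl2a1b: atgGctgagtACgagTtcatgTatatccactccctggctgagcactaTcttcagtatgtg
Bcl2a1d: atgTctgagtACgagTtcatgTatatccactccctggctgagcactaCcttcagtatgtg

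These windows lie at chr9:88957051-88957110 on the plus strand (Bcl2a1a), chr9:89199360-89199419 on the plus strand (Bcl2a1b) and chr9:88731660-88731719 on the minus strand (Bcl2a1d). A 3′ library reads mostly the end of a transcript, and there the copies are closer still: over the last 300 bases Bcl2a1a and Bcl2a1b differ at 4 positions, and each differs from Bcl2a1d at 2. The rule by which reads were shared out among the copies was not stated, so the counts of the single copies are uncertain and their sum, written Bcl2a1 summed, is given beside them. Overlapping annotated genes add a second uncertainty on the same strand for Bcl2 (Mir3473f and Gm37053), Bcl2a1b (Gm29094) and Bax (Gm45808). On the opposite strand D630008O14Rik overlaps Bcl2, Gm10634 overlaps Bcl2a1d and Ggnbp1 overlaps Bak1, and the labels do not say whether counting used strand.

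After filtering, 8847 cells were kept in the library labelled p180 (median 5931 UMIs) and 4543 in the library labelled E18.5 (median 4721 UMIs). In the library labelled p180, 6891 cells (77.9%) were erythroid-like and 1075 neutrophil-like. Of these 1075, 1015 lay in clusters with granule genes of neutrophil precursors, and 78 of 195 B cell-like cells had a UMI of a B cell precursor gene. Such a content goes against an adult liver. The library labelled E18.5 held 1306 B cell-like, 1024 endothelial-like, 490 T cell-like and 112 plasma cell-like cells and 82 erythroid-like cells, a content of mature lymphocytes and plasma cells that goes against a fetal liver. The minimum of 200 genes removed a further 1352 barcodes labelled E18.5, of median 2627 UMIs, whose UMIs were mostly haemoglobin, so its 82 erythroid-like cells are a count after filtering. The stages are therefore given as labels throughout. Whether the labels were exchanged was not tested, so each ratio is between labels and gives no direction with age. Neither library had a hepatocyte-like cluster, although the tissue is labelled liver. The libraries shared 28 cell barcodes, 11 of them among kept cells. A class entered the comparison where each library held 50 or more of its cells, which left 6: erythroid-, neutrophil-, monocyte-, B cell-, endothelial- and mesenchymal-like cells.

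Levels are given as UMIs of a gene per 1000000 UMIs of a class (CPM), with exact 95% Poisson intervals that cover counting error only. Haemoglobin UMIs are counted in that total. They were 63.7% of UMIs in erythroid-like cells labelled p180 and 58.9% in those labelled E18.5. Every erythroid-like level therefore stands lower in the orders of classes than it would among the other UMIs. Since the libraries count 3′ ends, no level is compared between genes. A member was measured in a class where at least 1 library had 50 UMIs of it, and it was called higher or lower where the ratio of the library labelled p180 over the library labelled E18.5 was past 2-fold. Of 60 pairs of member and class, 43 were measured, 10 were higher under the p180 label, 10 were lower and 23 lay between. Of the 43, 24 reached 50 UMIs in 1 library only, as did 10 of the 20 called, so these counts are no support for a shared direction. The ratio of all genes was not centred on 0 in every class, with a median log2 ratio of 0.46 in monocyte-like and neutrophil-like cells and 0.22 in mesenchymal-like cells. Centred on each class's own median, 8 pairs were higher and 13 lower.

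The share of all genes called sets the scale for these counts. In B cell-like cells 3 of 9 measured members were higher and 3 lower, beside 23.3% and 18.2% of 8628 genes. In neutrophil-like cells 0 of 8 were higher and 4 lower, beside 35.8% and 18.1% of 9638 genes. In monocyte-like cells 3 of 10 were higher and 1 lower, beside 30.7% and 8.28% of 9049 genes. In endothelial-like cells 1 of 6 was higher and 0 lower, beside 4.87% and 10.1% of 8255 genes. In mesenchymal-like cells 1 of 4 was higher and 1 lower, beside 33.8% and 22.9% of 4195 genes. In erythroid-like cells 2 of 6 were higher and 1 lower, beside 25.3% and 29.7% of 7367 genes. Only a few members enter each class, so these shares describe the members and do not set them apart from other genes.

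**Figure D1:**
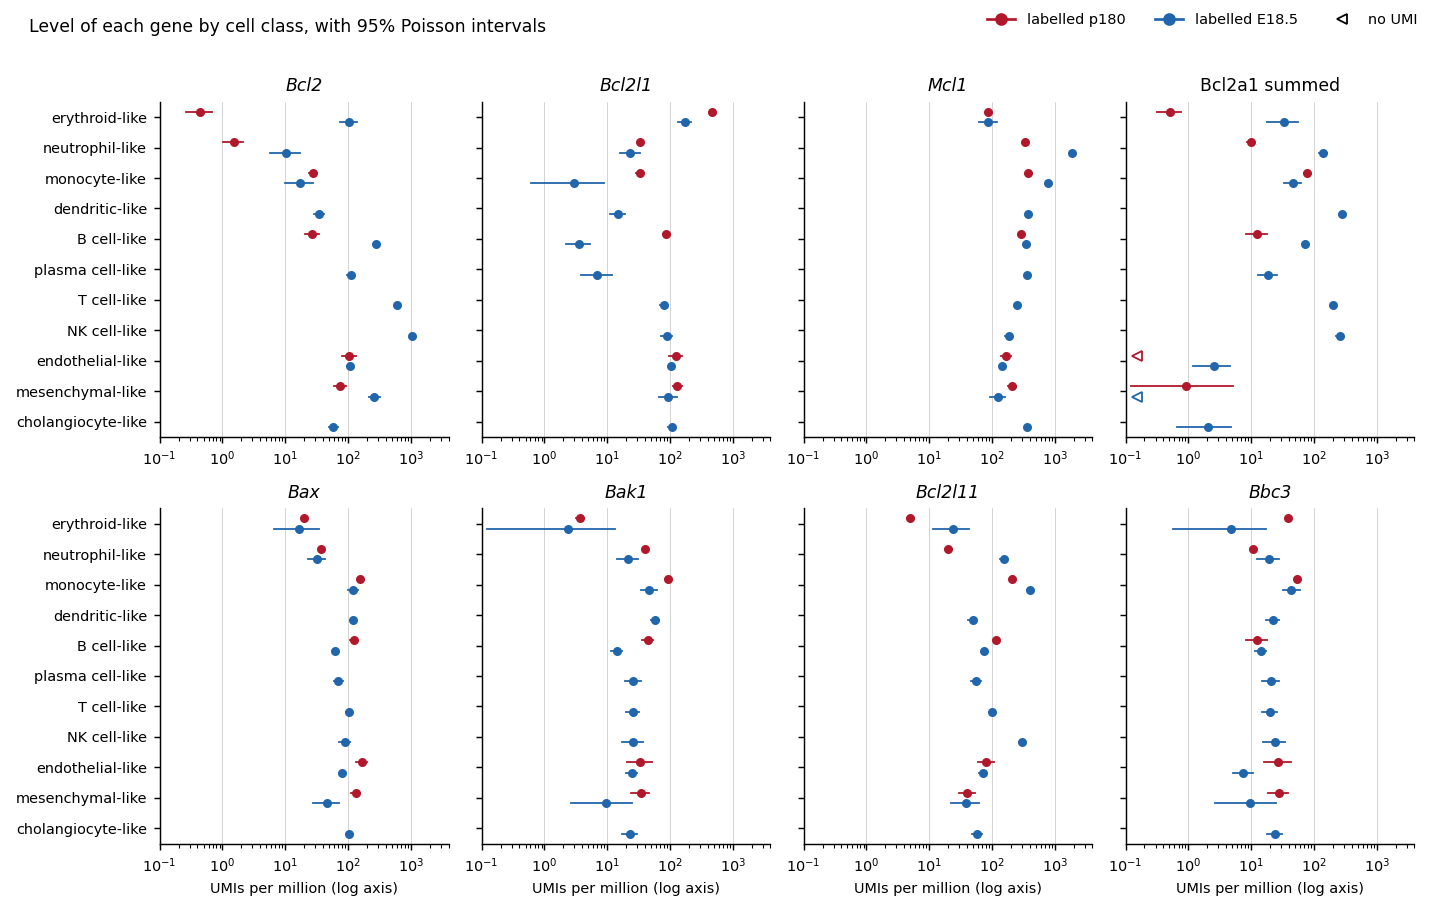
Level of each gene (CPM, log axis) in 11 cell classes of the library labelled p180 (red) and the library labelled E18.5 (blue); points are summed UMIs of a class, lines exact 95% Poisson intervals and open triangles classes with no UMI. Bcl2 spans from 0.43 in erythroid-like cells labelled p180 to 1050.0 in NK cell-like cells labelled E18.5, while Bax spans 16.6 to 166.

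**Figure D2:**
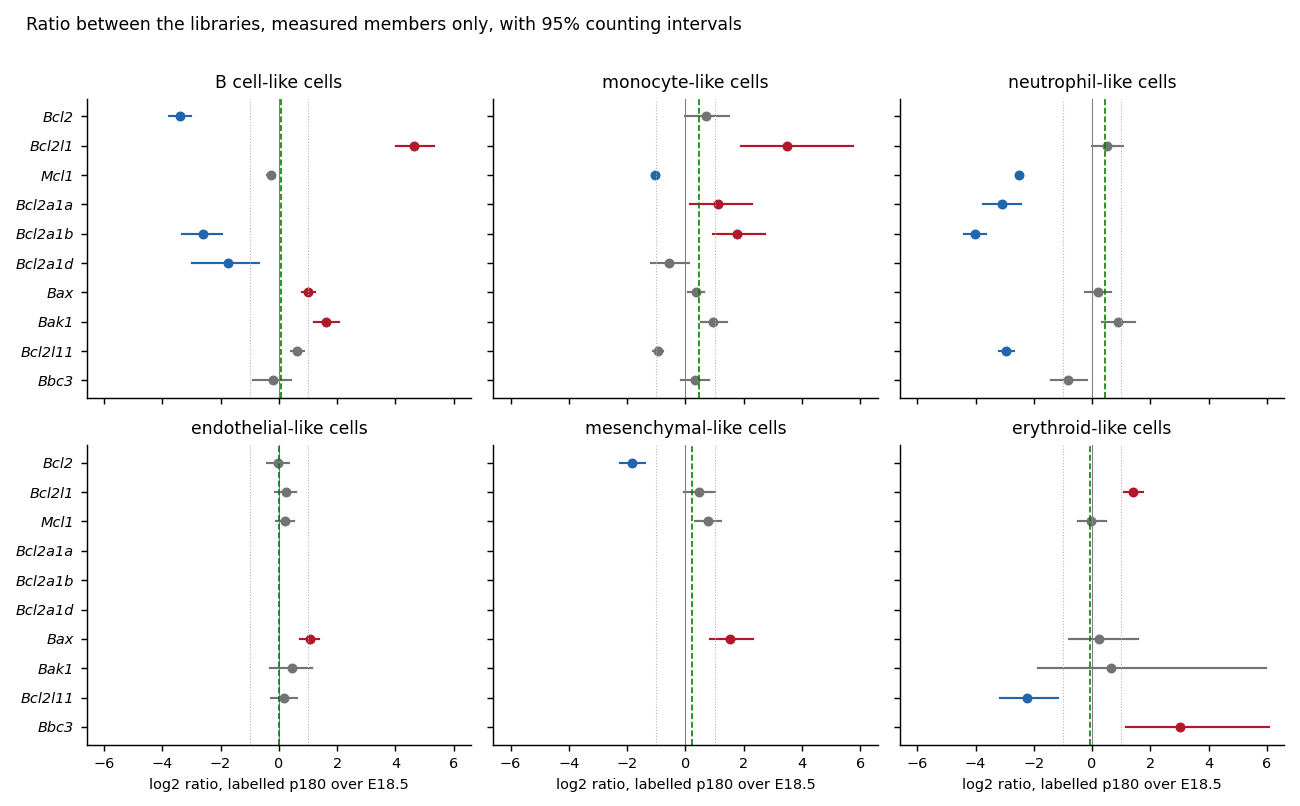
Log2 ratio of each measured member, labelled p180 over labelled E18.5, in the 6 shared classes, with 95% counting intervals; red is at least 2-fold higher, blue at least 2-fold lower, grey between, dotted lines mark 2-fold and the green dashed line the median of all genes of the class. The 4 blue points of neutrophil-like cells are Mcl1, Bcl2a1a, Bcl2a1b and Bcl2l11.

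Bcl2, the founding survival gene, had its highest levels in lymphocyte-like classes labelled E18.5. Its level was 1050.0 CPM (interval 990 to 1113) in NK cell-like cells labelled E18.5, 603 (575 to 632) in T cell-like cells and 280 (267 to 293) in B cell-like cells of the same library. The intervals of these 3 did not overlap, and that of B cell-like cells overlapped the next, mesenchymal-like cells labelled E18.5 at 264. At the other end stood neutrophil-like cells, with 1.51 CPM under the p180 label and 10.3 under the E18.5 label, and erythroid-like cells labelled p180 with 0.43 (19 UMIs in 6891 cells). A Bcl2 UMI was found in 88.5% of NK cell-like cells and in 0.247% of erythroid-like cells labelled p180. With each cell thinned to 1000 UMIs the shares were 57.4% and 0.0621%. Of the 183 NK cell-like cells, 104 lay in a cluster with 6 NK cell and 3 T cell markers among its leading genes. The part of T cell-like cells in the levels of that class was not tested.

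Between the libraries Bcl2 was lower under the p180 label in B cell-like cells, at 26.8 CPM against 280 under the E18.5 label (log2 ratio −3.38, interval −3.77 to −3.01). It was also lower in mesenchymal-like cells, at 74.5 CPM under the p180 label against 264 under the E18.5 label (log2 ratio −1.83, −2.26 to −1.40). Markers of several other cell types moved with that class. Cholangiocyte markers summed to 3438 CPM under the p180 label (11 of 12 found) and 36.4 under the E18.5 label (5 of 12), and hepatocyte markers to 2603 CPM (13 of 13) and 203.6 (10 of 13). Neutrophil markers summed to 1514 CPM under the p180 label (14 of 15) and 58.2 under the E18.5 label (5 of 15). The part of these cell types in the Bcl2 and Bax ratios of the class was not tested. In endothelial-like cells the levels lay side by side, 105 CPM under the p180 label and 107 under the E18.5 label (log2 ratio −0.02, −0.42 to 0.36). Erythroid-like cells had 19 Bcl2 UMIs under the p180 label and 43 under the E18.5 label, both under 50, so that ratio was left unmeasured. B cell markers summed to 5.83 and 3248 CPM in these cells, with 14 and 12 of the 14 B cell markers found.

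The B cell-like cells were not alike in kind. Under the p180 label 78 of 195 (40.0%) had a UMI of Igll1, Vpreb1, Rag1, Rag2 or Dntt, genes of B cell precursors, against 1 of 1306 under the E18.5 label. Within the library labelled p180, Bcl2 stood at 9.74 CPM in cells with such a UMI and 56.3 in cells without, on 14 and 47 UMIs, too few for a call. Bcl2a1 summed had 0 and 28 UMIs in them. Mcl1 was lower in the cells with a precursor UMI, at 172 CPM against 484 in those without (log2 ratio −1.49, −1.73 to −1.26), and the cells with one were the deeper ones (median 11196 against 5350 UMIs). Bcl2l1 was 89.7 and 85.1 CPM and not past 2-fold. Without the precursor cells, Bcl2 remained lower under the p180 label, at 56.3 CPM against 280 under the E18.5 label (log2 ratio −2.31, −2.76 to −1.90).

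Bcl2l1, which encodes the survival protein Bcl-xL, was highest in erythroid-like cells. It had 461 CPM (455 to 468; 20173 UMIs) under the p180 label and 174 (136 to 218; 73 UMIs) under the E18.5 label, a log2 ratio of 1.41 (1.08 to 1.76). Over 12 settings this log2 ratio ran from 1.28 to 2.54. It was highest with no minimum of genes, which lets in the 1352 haemoglobin-rich barcodes labelled E18.5 at 73.4 CPM of Bcl2l1. The class labelled E18.5 also held the B cell markers given above, with 7 of them among its leading genes beside 8 erythroid markers. B cell-like cells of that library had 3.54 CPM of Bcl2l1. The part of B cell RNA in the Bcl2l1 ratio was not tested. A Bcl2l1 UMI was present in 81.6% of erythroid-like cells labelled p180 and 39.0% of those labelled E18.5, and in 39.8% and 19.5% after thinning, which left out 452 and 0 cells under 1000 UMIs. The next classes, mesenchymal-like cells at 131 CPM under the p180 label and 94.5 under the E18.5 label and endothelial-like cells at 124 under the p180 label and 105 under the E18.5 label, were not past 2-fold between the libraries. The lowest levels were 3.0 CPM in monocyte-like cells and 3.54 in B cell-like cells, both labelled E18.5.

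In those 2 classes Bcl2l1 was higher under the p180 label. B cell-like cells had 88.0 CPM under the p180 label and 3.54 under the E18.5 label (log2 ratio 4.64, 4.01 to 5.33). Monocyte-like cells had 33.3 CPM under the p180 label and 3.0, or 3 UMIs, under the E18.5 label (ratio 11.1, interval 3.75 to 54.2), a log2 ratio of 3.47 that became 1.01 with each cell thinned to 1000 UMIs and 1.89 at Leiden resolution 2. Haemoglobin, which these cells should lack, moved with both differences: its share of UMIs was 2.88% under the p180 label and 0.0927% under the E18.5 label in B cell-like cells, and 1.24% and 0.0509% in monocyte-like cells. In cells with under 1% haemoglobin Bcl2l1 was 48.8 CPM in 159 B cell-like cells labelled p180 against 3.55 under the E18.5 label (log2 ratio 3.78), and 23.4 CPM in 221 monocyte-like cells labelled p180 against 3.0 under the E18.5 label (log2 ratio 2.96). For each 10000 haemoglobin UMIs there were 30.6 Bcl2l1 UMIs in B cell-like and 26.8 in monocyte-like cells labelled p180, against 7.24 in the erythroid-like cells of that library.

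The same restriction touched mesenchymal-like cells labelled p180 most. Their haemoglobin share was 9.66%, and Bcl2l1 was 30.6 CPM (19 to 46.8) in the 57 cells under 1% haemoglobin, against 131 CPM in all 131 cells. The cells labelled E18.5 had 90.7 CPM under the same limit and 94.5 in all. The p180 side was thus the higher in all cells and the lower under the limit, there on 21 and 37 UMIs, too few for a call. The part of free erythroid RNA in the levels of the classes outside the erythroid line was not tested further.

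Within erythroid-like cells labelled p180 the cells were placed in 5 bins of haemoglobin share, under 10%, 10 to 30%, 30 to 50%, 50 to 70% and 70% and over, with 164, 665, 1037, 2011 and 3014 cells. Levels here are CPM among UMIs that are not haemoglobin (non-Hb CPM). Bcl2l1 stood at 105, 459, 529, 1193 and 2379 non-Hb CPM from the lowest bin to the highest. The highest bin was over the lowest by a log2 ratio of 4.5 (4.19 to 4.83), with 11608 and 85 Bcl2l1 UMIs. As raw shares, 93.6% of cells in the highest bin and 30.5% in the lowest had a Bcl2l1 UMI, and 41.5% and 17.3% after thinning to 1000 UMIs, in which haemoglobin UMIs are counted.

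Other members took other courses over the same bins. Of 4 measured, 2 were at least 2-fold higher in the highest bin (20.5% of 4865 genes were) and 1 was lower (45.6% of genes were, with a median log2 ratio of −0.79 for all genes). Bbc3, the gene of the BH3-only protein Puma, was the second that was higher, at 28.4, 60.1, 87.4, 109 and 151 non-Hb CPM (log2 ratio 2.41, 1.81 to 3.07). Mcl1 stood at 138, 158, 236, 292 and 235 non-Hb CPM and was not past 2-fold (log2 ratio 0.77, 0.49 to 1.06). Bax, the pore former, was the member that was lower, at 116, 63.3, 60, 58.0 and 32.8 non-Hb CPM (log2 ratio −1.82, −2.20 to −1.44). Bak1 and Bcl2l11 had under 50 UMIs in both end bins, with 3.07 against 28.4 non-Hb CPM for Bak1 and 8.61 against 27.2 for Bcl2l11. Bcl2 and Bcl2a1 summed had at most 9 UMIs in any bin.

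**Figure D3:**
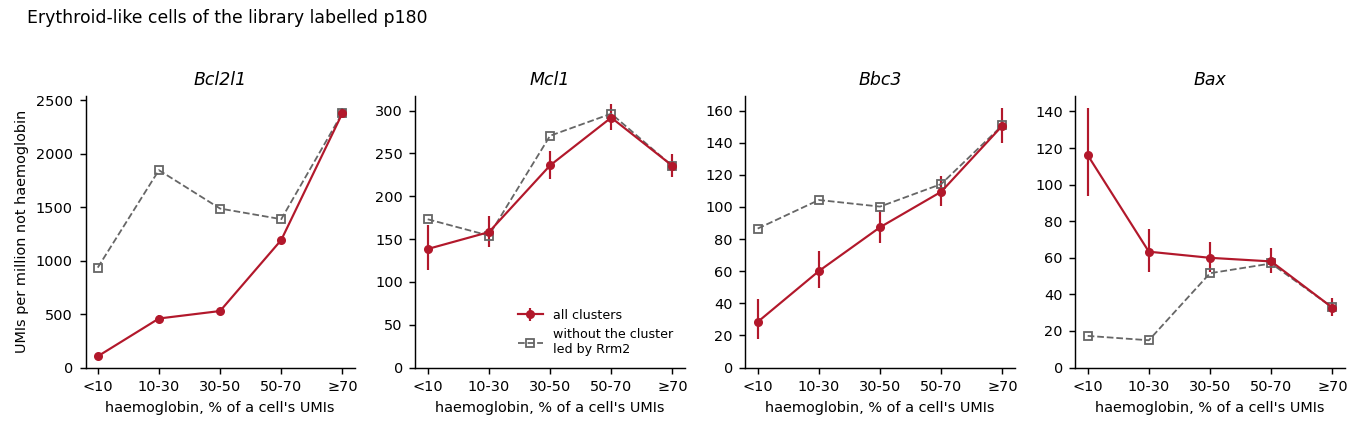
Levels of 4 genes (non-Hb CPM; linear axes from 0) in the 5 haemoglobin bins of erythroid-like cells labelled p180; red points are all clusters with 95% Poisson intervals, grey squares leave out the cluster led by Rrm2. Bcl2l1 climbs from 105 to 2379 with all clusters, and without that cluster it stands at 935, 1846, 1487, 1388 and 2381.

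That course rests on which clusters fill the low bins. Erythroid-like cells labelled p180 formed 10 clusters, and 1 of them, led by Rrm2 (a subunit of ribonucleotide reductase, used in DNA synthesis), Hemgn, Rhd and Car1, held 895 cells and 102 of the 164 in the lowest bin. Levels are of pooled UMIs, and these 102 cells supplied 751658 of the 809435 UMIs of that bin that are not haemoglobin. The Bcl2l1 level of this cluster was 112 non-Hb CPM, against 532 to 2956 in the other 9 clusters. Without it the 5 bins had 935, 1846, 1487, 1388 and 2381 non-Hb CPM (62 cells in the lowest), and the log2 ratio of highest over lowest was 1.35. Bax then stood at 17.3, 14.9, 51.6, 56.9 and 32.8 non-Hb CPM, and Bbc3 at 86.5, 104, 100.2, 114 and 151. This setting was chosen after the data had been seen. Over 15 settings the log2 ratio of Bcl2l1 between the end bins lay between 1.07 and 4.53. That of Bax was above 0 in 3 of its 13 settings, at 1.10 with Leiden resolution 2, 1.11 with no minimum of genes and 0.73 with a mitochondrial limit of 10%. Without the Rrm2-led cluster the highest bin was also above the lowest for Bax, on 160 and 1 UMIs.

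Within single clusters Bcl2l1 did not climb steadily with haemoglobin, outside the Rrm2-led cluster. In that cluster it stood at 41.2, 72.0, 119 and 225 non-Hb CPM over the 4 lower bins. In the cluster led by Xpo7, the values from the lowest bin to the highest were 2077, 3123, 3725, 2807 and 2523 non-Hb CPM. In the cluster led by Top2a, a gene of dividing cells, they were 707, 794, 503 and 597 over the 4 lower bins. In both, the bins of the cluster spanned less than the clusters did among themselves.

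Cell division genes ran the other way over the clusters. The 10 genes of that list summed to 7795 non-Hb CPM in the Rrm2-led cluster, 11409 in the Top2a-led cluster and 6465 in the cluster led by Hemgn. These are also the 3 clusters with the lowest Bcl2l1, at 112, 589 and 532 non-Hb CPM. The 7 others had 475 to 3223 non-Hb CPM of cell division genes and 1202 to 2956 of Bcl2l1. The same 3 clusters had the highest Bax (75.4, 75.7 and 90.4 non-Hb CPM, against 7.73 to 63.4 in the others), and the Rrm2-led cluster alone held 151 of the 219 Bcl2l11 UMIs and 112 of the 162 Bak1 UMIs of the class. Neutrophil markers also moved with the bins, with a summed level of 1066 non-Hb CPM in the lowest and 3558 in the highest, and the median mitochondrial share was 5.49% in the lowest bin and 0.351% in the highest; their part in these courses was not tested.

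**Figure D4:**
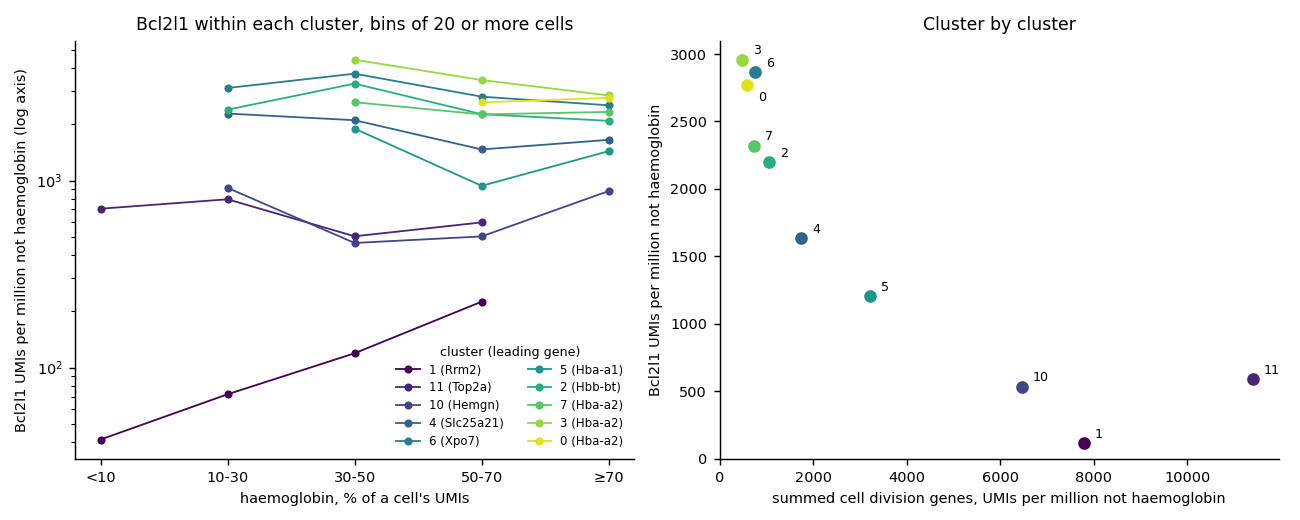
Left, Bcl2l1 (non-Hb CPM, log axis) over haemoglobin bins within each of the 10 erythroid-like clusters labelled p180, for bins of at least 20 cells; right, Bcl2l1 against the summed cell division genes, 1 point per cluster. The Rrm2-led cluster (1) lies lowest in both panels, and the 7 clusters with at most 3223 non-Hb CPM of cell division genes all have at least 1202 non-Hb CPM of Bcl2l1.

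Mcl1, a short-lived survival protein that neutrophils depend on in mice, was highest in neutrophil-like cells labelled E18.5, at 1889.7 CPM (1817 to 1964), with a UMI in 99.2% of cells. Monocyte-like cells labelled E18.5 followed at 777 CPM. With haemoglobin UMIs counted, the other 15 class values lay between 86.6 CPM, in erythroid-like cells labelled p180, and 383 CPM, in dendritic-like cells labelled E18.5. In the whole order 13 of 16 neighbours had overlapping intervals. Mcl1 was lower under the p180 label in neutrophil-like cells, at 335 CPM against 1889.7 under the E18.5 label (log2 ratio −2.50, −2.56 to −2.43). It was lower in monocyte-like cells too, at 380 CPM (366 to 395) under the p180 label against 777 under the E18.5 label (log2 ratio −1.03, −1.15 to −0.92), just past 2-fold, and the call held in 6 of 11 settings (−1.49 to −0.80). Neutrophil markers summed to 11048 CPM in monocyte-like cells labelled p180 and 423 in those labelled E18.5. Their part in the ratios of this class was not tested. Both called Mcl1 ratios are of shares of UMIs, and depth differed. Neutrophil-like cells had median depths of 16567 and 2866 UMIs under the p180 and E18.5 labels, with 7111 Mcl1 UMIs in 1075 cells and 2574 in 399. Monocyte-like cells had 25495 and 8497.5, with 2650 Mcl1 UMIs in 249 cells and 777 in 116. The part of depth was not tested.

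In neutrophil-like cells Bcl2l11, Bcl2a1a and Bcl2a1b were lower as well. Bcl2l11, the gene of the BH3-only protein Bim, was 20.1 CPM under the p180 label and 154 under the E18.5 label (log2 ratio −2.94, −3.18 to −2.70). Bcl2a1b was 5.70 CPM under the p180 label and 91.8 under the E18.5 label (log2 ratio −4.01, −4.38 to −3.64), and Bcl2a1a 2.73 and 23.5 CPM. Bax, at 36.9 CPM under the p180 label and 32.3 under the E18.5 label, Bak1, at 39.4 and 21.3, Bcl2l1, at 33.5 and 23.5, and Bbc3, at 10.8 and 19.1, were not past 2-fold.

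The neutrophil-like clusters of the libraries differed in kind. Under the p180 label 1015 of 1075 cells lay in 3 clusters without Csf3r, the receptor of mature neutrophils for G-CSF, among their naming markers, and with Ngp at 24805 CPM and Elane at 2177 CPM, granule genes of neutrophil precursors. Under the E18.5 label 379 of 399 cells lay in a cluster with Csf3r at 2406 CPM and Elane at 0. Between the Csf3r-named clusters, of 60 cells labelled p180 and 379 labelled E18.5, Mcl1 was 1926 CPM (1765 to 2099) under the p180 label and 2160.0 (2075 to 2247) under the E18.5 label (log2 ratio −0.17, −0.30 to −0.03). Bcl2l11 was 199 and 176 CPM (log2 ratio 0.18, −0.28 to 0.62), so that the ratio changed sign and was not past 2-fold. Bcl2a1b was still lower, at 48.0 CPM under the p180 label against 108 under the E18.5 label (log2 ratio −1.17, −2.12 to −0.34). Bcl2a1a was 36.9 CPM under the p180 label and 28.3 under the E18.5 label, on 10 and 32 UMIs, too few for a call. This comparison was also chosen after the data had been seen.

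Inside the library labelled p180 the Csf3r-named cluster stood above the other 3 for the same genes. Mcl1 was 1926 CPM there and 314 in the others (ratio 6.13, 5.59 to 6.70), Bcl2l11 199 and 17.8 CPM (ratio 11.2, 8.28 to 15) and Bcl2a1 summed 84.9 and 8.92 CPM (ratio 9.51, 5.88 to 14.7). Bcl2l1 was 122 CPM there and 32.3 in the others, and Bbc3 48.0 and 10.3. Bax was 55.4 and 36.7 CPM and was not past 2-fold. The Csf3r-named cluster was shallower, with a median of 4137 UMIs against 17627 in the others. Its 60 cells held 522 Mcl1 and 15 Bax UMIs, and the 1015 others 6589 and 769. These ratios are of shares of UMIs, and the part of depth in them was not tested. In the library labelled E18.5 Mcl1 was 2160.0 CPM in the Csf3r-named cluster and 576 in the 20 cells of the other. The naming by Csf3r did not use the members, which were kept out of the genes used for clustering.

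**Figure D5:**
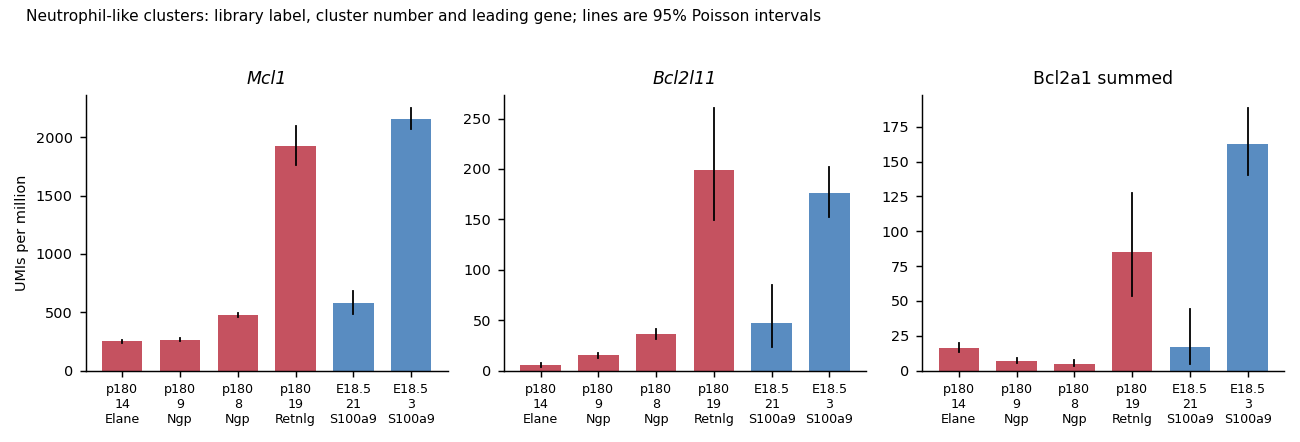
Mcl1, Bcl2l11 and summed Bcl2a1 (CPM, axes from 0) in each neutrophil-like cluster, labelled by library, cluster number and leading gene; lines are 95% Poisson intervals. The Retnlg-led cluster labelled p180 (19) and the larger S100a9-led cluster labelled E18.5 (3), both named with Csf3r, stand at 1926 and 2160.0 for Mcl1, above all 4 others.

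The Bcl2a1 genes encode A1, a survival protein found in blood cells, and their summed level was lowest in endothelial-, mesenchymal-, cholangiocyte- and erythroid-like cells, apart from erythroid-like cells labelled E18.5 at 33.3 CPM on 14 UMIs. That class held the B cell markers given above, and B cell-like cells of its library had 71.0 CPM; their part in that level was not tested. It was 277 CPM in dendritic-like, 257 in NK cell-like, 201 in T cell-like and 138 in neutrophil-like cells labelled E18.5. Endothelial-like cells had 0 UMIs under the p180 label, where 3 counts would be 4.78 CPM, and 2.52 CPM under the E18.5 label, and cholangiocyte-like cells labelled E18.5 had 2.07. A UMI was found in 84.6% of dendritic-like cells labelled E18.5 (median 18362 UMIs) and in 0.879% of endothelial-like cells labelled E18.5 (median 3157 UMIs), and in 19.3% and 0.302% after thinning. The highest levels lay in cells left without a class or too few to compare. A cluster labelled E18.5 led by H2-Ab1 and Cd74, genes of antigen presentation, had 1234 CPM, macrophage-like cells labelled E18.5 had 1209.7 CPM in 35 cells, and a cluster labelled E18.5 led by C1qa had 586 CPM.

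The copies did not share the same order of classes, as far as reads can be told apart. Bcl2a1d was 166 CPM and Bcl2a1a 75.1 in dendritic-like cells, the highest class of both. Bcl2a1b was highest in NK cell-like cells, at 195 CPM, against 35.6 in dendritic-like cells. In B cell-like cells Bcl2a1b was lower under the p180 label, at 8.80 CPM against 53.8 under the E18.5 label (log2 ratio −2.61, −3.34 to −1.96); without the precursor cells it was 24.0 against 52.9 (log2 ratio −1.14, −1.87 to −0.49). Bcl2a1d was lower there as well, at 3.52 CPM against 11.7 under the E18.5 label, but without those cells it was 9.59 against 11.7 and no longer past 2-fold. In monocyte-like cells Bcl2a1a, at 19.6 CPM under the p180 label and 9.0 under the E18.5 label, and Bcl2a1b, at 40.6 and 12 CPM, were higher under the p180 label, and Bcl2a1d, at 16.9 and 25, was not past 2-fold. Those 2 differences rest on 9 and 12 UMIs labelled E18.5 and depended on the clustering: at Leiden resolution 2 the log2 ratios were −3.60 and −4.21.

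Bax had UMIs in all 17 class values. With haemoglobin UMIs counted, its levels ran between 166 CPM in endothelial-like cells labelled p180 and 16.6 in erythroid-like cells labelled E18.5. In that order 15 of 16 neighbours had overlapping intervals. It was higher under the p180 label in 3 classes. Endothelial-like cells had 166 CPM under the p180 label and 79.8 under the E18.5 label (log2 ratio 1.05, 0.72 to 1.38), and mesenchymal-like cells 134 and 46.1 (1.54, 0.85 to 2.32). B cell-like cells had 123 CPM under the p180 label and 61.5 under the E18.5 label (1.00, 0.78 to 1.23), which lay at the 2-fold line itself. The call held in 9 of 13 settings in endothelial-like cells (log2 ratio 0.67 to 1.11, lowest with no doublets left out), in 10 of 15 in B cell-like cells (0.92 to 1.12) and in 8 of 8 in mesenchymal-like cells. In monocyte-like cells it was 156 CPM under the p180 label and 122 under the E18.5 label, not past 2-fold. In cells with under 1% haemoglobin the 3 log2 ratios were 1.08, 1.60 and 1.10.

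Bak1, the second effector, was highest in monocyte-like cells labelled p180, at 91.5 CPM (84.5 to 98.8), above dendritic-like cells labelled E18.5 at 58.2 with no overlap of intervals. With haemoglobin UMIs counted it was lowest in erythroid-like cells, at 3.71 CPM under the p180 label and 2.38, or 1 UMI, under the E18.5 label. In B cell-like cells it was higher under the p180 label, at 44.0 CPM against 14.3 under the E18.5 label (log2 ratio 1.62, 1.2 to 2.05), and without the precursor cells it was 43.1 against 14.3. Monocyte-like cells, at 91.5 CPM under the p180 label and 47.0 under the E18.5 label, stayed just inside 2-fold (log2 ratio 0.96, 0.53 to 1.42).

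Bcl2l11 stood out in monocyte-like and NK cell-like cells. It was 211 CPM in monocyte-like cells labelled p180 and 407 (368 to 449) in those labelled E18.5, a log2 ratio of −0.95 that was not past 2-fold, and 306 CPM in NK cell-like cells labelled E18.5. These 3 intervals did not overlap. In B cell-like cells it was 117 CPM under the p180 label and 75.3 under the E18.5 label, and without the precursor cells 168 against 75.3, then past 2-fold (log2 ratio 1.16, 0.87 to 1.43). In erythroid-like cells it was lower under the p180 label, at 5.01 CPM (219 UMIs) against 23.8 (10 UMIs) under the E18.5 label (log2 ratio −2.25, −3.15 to −1.17). With no minimum of genes per barcode that log2 ratio was 0.13. B cell markers summed to 5.83 CPM in this class under the p180 label and 3248 under the E18.5 label, whose B cell-like cells held 75.3 CPM of Bcl2l11, and their part in this ratio was not tested.

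With haemoglobin UMIs counted, Bbc3, whose protein Puma can be induced by p53, had its highest levels in monocyte-like cells. These were 54.6 CPM under the p180 label and 44.0 under the E18.5 label. The erythroid-like cells labelled p180 came next at 39.0 CPM (1703 UMIs), against 4.76 CPM, or 2 UMIs, under the E18.5 label (ratio 8.19, interval 2.26 to 67.7). With no minimum of genes it was 38.6 CPM under the p180 label and 0.282 under the E18.5 label. With each cell thinned to 1000 UMIs the cells labelled E18.5 had no Bbc3 UMI, and the log2 ratio of 3.03 became 0.52 against the level of 3 counts, which is not past 2-fold. The erythroid-like cells labelled E18.5 held the B cell markers given above, and B cell-like cells of that library had 14.3 CPM of Bbc3. The part of B cell RNA in the Bbc3 ratio was not tested. All 16 neighbours in the order of the 17 class values of Bbc3 had overlapping intervals. Over the haemoglobin bins of erythroid-like cells labelled p180, Bbc3 was 28.4 non-Hb CPM in the lowest bin and 60.1 to 151 in the others. The place of that class below monocyte-like cells thus depends on counting haemoglobin UMIs. In endothelial-like cells it was 27.1 CPM under the p180 label and 7.55 under the E18.5 label on 17 and 30 UMIs, too few for a call.

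Other lists of the pathway were read the same way. Of the 12 p53-linked genes, 9, 9, 6, 2, 8 and 8 were measured in B cell-, endothelial-, erythroid-, mesenchymal-, monocyte- and neutrophil-like cells, with 2, 1, 3, 1, 2 and 2 higher under the p180 label and 2, 1, 2, 0, 3 and 3 lower. Trp53 itself was higher in all 6 classes, for example at 212 CPM under the p180 label and 79.5 under the E18.5 label in B cell-like cells. Fas, a death receptor, was lower in neutrophil-like cells, at 7.26 CPM against 122 under the E18.5 label. Over the haemoglobin bins 0 of 4 measured genes of the list were higher in the highest bin and 0 lower.

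Of 16 genes of the apoptosome and caspases, 15, 12, 13, 6, 16 and 16 were measured in that order of classes, with 6, 1, 2, 5, 6 and 7 higher under the p180 label and 0, 0, 4, 0, 0 and 1 lower. Vdac1, a channel of the outer mitochondrial membrane, was higher in B cell-like cells at 160 CPM against 27.7 under the E18.5 label, and Cycs, cytochrome c, at 313 against 77.2. The median log2 ratio of the list in B cell-like cells was 0.85, beside 0.08 for all genes. Over the haemoglobin bins 6 of its 7 measured genes were lower in the highest bin and 0 higher, with a median of −2.17 beside −0.79 for all genes.

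Of 16 other Bcl2 family genes, 6, 8, 4, 2, 7 and 7 were measured, with 2, 1, 1, 2, 1 and 2 higher and 1, 0, 1, 0, 0 and 3 lower. Pmaip1, the BH3-only gene of Noxa, was lower under the p180 label in B cell-like cells, at 15 CPM against 135 under the E18.5 label, and in neutrophil-like cells, at 30.6 against 319. Bnip3l, which drives the removal of mitochondria in maturing red cells, stood out over the haemoglobin bins, at 2650.3 non-Hb CPM in the highest against 233 in the lowest; it was the 1 of 3 measured genes that was higher there, and 0 were lower. Of the 6 caspase inhibitors, 6, 6, 5, 4, 6 and 6 were measured, with 1 higher in every class, which was Birc5 each time, and 1, 0, 2, 3, 1 and 2 lower; over the haemoglobin bins 0 of 4 were higher and 3 lower. Birc3, a target of NF-kappaB, was lower in B cell-like cells at 66.0 CPM against 373 under the E18.5 label and in neutrophil-like cells at 23.7 against 223.

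Of 14 regulators of the members, 13, 10, 13, 6, 13 and 13 were measured, with 0, 0, 3, 1, 1 and 1 higher under the p180 label and 4, 0, 5, 3, 2 and 8 lower. Pim1, a kinase gene induced by cytokines, was 75.0 CPM in neutrophil-like cells labelled p180 against 1437 under the E18.5 label. Over the haemoglobin bins 3 of 10 measured regulators were higher and 1 lower, and Pim1 was among the higher, at 2581 non-Hb CPM in the highest bin against 300.2 in the lowest. Of 12 receptors of survival signals 3, 4, 3, 0, 5 and 6 were measured, with 1, 0, 1, 0, 1 and 2 higher and 1, 1, 0, 0, 2 and 4 lower; over the haemoglobin bins 1 of 3 was higher and 0 lower. Il7r, the receptor of a B cell precursor cytokine, was 208 CPM in B cell-like cells labelled p180 against 0.461 under the E18.5 label, and Csf3r 81.2 CPM in neutrophil-like cells labelled p180 against 2017 under the E18.5 label.

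A pair of lists moved with the label in most classes and stand beside every ratio above. The 10 cell division genes were higher under the p180 label for 10 of 10 measured in B cell-, erythroid-, mesenchymal- and monocyte-like cells, 9 of 10 in neutrophil-like and 2 of 3 in endothelial-like cells. The 14 dissociation stress genes, which rise when tissue is taken apart, were lower for 11, 5, 10, 10 and 9 of 14, 14, 13, 14 and 14 in B cell-, endothelial-, erythroid-, monocyte- and neutrophil-like cells, and higher for 10 of 14 in mesenchymal-like cells, 1 in B cell-like and 2 in erythroid-like cells. Over the haemoglobin bins 9 of 10 cell division genes were lower in the highest bin, and 7 of 11 stress genes were higher and 1 lower. Median mitochondrial shares were lower under the p180 label in all 6 classes, for example 2.34% against 8.91% under the E18.5 label in B cell-like cells. The part of these in the members' ratios was not tested, and with 1 library per label they cannot be told apart from the label.

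Genes with the most similar pattern were sought over 17 class values, all named classes of at least 50 cells in both libraries, by Pearson correlation of log2(CPM + 10) among 8235 genes. The points share libraries and depth, and the values are a description. The closest gene was Cipc for Bcl2 (r = 0.918), Fbxo9 for Bcl2l1 (0.898), Etf1 for Mcl1 (0.929), Nlrp1b for Bcl2a1a (0.906), Vps37b for Bcl2a1b (0.936), Nabp1 for Bcl2a1d (0.915), Commd4 for Bax (0.949), Psma7 for Bak1 (0.933) and Vamp4 for Bcl2l11 (0.901). Bbc3 had the weakest match, H2afj at 0.766. Next to these, Bcl2 was followed by Zfp52 and Aak1, Bcl2l1 by Slc25a51 and Abcg2, and Mcl1 by Cdk2ap2 and Nfkbia.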

How the data were processed

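Single-cell RNA was measured in 1 liver library per label. The deposited matrices hold UMI counts per gene and barcode, not normalized, written by Cell Ranger 7.1.0 per the file headers; the submitters' processing notes also name fastp, Trimmomatic, Seurat, edgeR and mm10, with no role given. The members and the gene lists were chosen with earlier results of these data known.

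Of 9771 barcodes labelled p180 and 9871 labelled E18.5, barcodes were kept that had 200 or more genes, 500 or more UMIs and a mitochondrial share below 25%, 9582 and 4721. Doublet scores then removed 735 and 178, at 0.8% for each 1000 cells, since the caller's own threshold marked 0 and 77. Cells were clustered per library (scanpy 1.11.5, leidenalg 0.10.2: 2000 variable genes, none of them a member, 30 components, 15 neighbours, resolution 1). A cluster was named "X-like" where at least 3 markers of a class stood among its 50 leading genes; 3 and 2 clusters stayed unnamed.

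UMIs were summed per class, with exact Poisson intervals for levels and exact binomial intervals for shares and ratios (scipy 1.17.1), at 95%. With 1 library per label nothing was tested between labels. A ratio against 0 UMIs was computed at a floor of 3 counts. Genes named from a list were the at most 4 past 2-fold with the largest ratios; Rrm2, Top2a, Xpo7, Elane and Ngp were named after their values were seen. UMIs per kept library were 82582371 under the p180 label and 28886528 under the E18.5 label. Of 11 haemoglobin genes, 10 had a row. The alternatives were other filters, doublet settings, clusterings, bins, thresholds and scalings. The counting code was tested on simulated data.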

Additional observations from a re-analysis of the deposited data

Results flagged for a closer look

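Bcl2a1a and Bcl2a1b differed in sign between classes, in a way that depended on the grouping of cells. The log2 ratio of the library labelled p180 over the library labelled E18.5 was 1.13 for Bcl2a1a in monocyte-like cells and −3.10 in neutrophil-like cells. For Bcl2a1b it was 1.76 in monocyte-like cells, −2.61 in B cell-like cells and −4.01 in neutrophil-like cells. The monocyte-like values turned to −2.67 and −3.29 at a mitochondrial limit of 10%, and to −3.60 and −4.21 at Leiden resolution 2. In neutrophil-like clusters named with Csf3r the values were 0.38 for Bcl2a1a, on 10 and 32 UMIs, and −1.17 for Bcl2a1b. The differences between classes were not tested.

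Barcodes left out of the library labelled E18.5 also carried members. The 2305 barcodes with at least 200 genes whose mitochondrial share was at or over the limit had 143 CPM of Bcl2, 56.2 of Bcl2l1, 154 of Mcl1, 52.1 of Bcl2l11, 32 of Bcl2a1b and 52.5 of Bax. Among barcodes under 200 genes, 1352 with mostly haemoglobin UMIs had 73.4 CPM of Bcl2l1, and 1493 with less had 65.3 CPM of Mcl1.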

How the results depend on the processing

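Each label has 1 library, so no replicate could be left out. No paired analysis was possible because each label has 1 library and no replicate numbers are shared. Of 578 recomputed ratios, 481 stayed within their counting interval, 88 moved outside it and 9 turned round. The lower Bcl2 and higher Bcl2l1 of B cell-like cells labelled p180 kept their calls in 15 of 15 settings (−3.47 to −2.31 and 3.78 to 5.08), and Mcl1 in neutrophil-like cells in 14 of 15. The setting in which Mcl1 lost its call was the Csf3r-named clusters only, at −0.17. The 14 others took the neutrophil-like class as a whole, whose clusters differed in kind between the libraries, so they do not bear on like cells.

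The 10 pairs called higher became 6 with a mitochondrial limit of 10% or with no doublets left out. They were 5 with the doublet caller's own threshold, at Leiden resolution 2 or past 3-fold, and 16 past 1.5-fold. Fewer ratios could be recomputed in some of these settings. They numbered 35 at the 10% limit, 34 with no doublets left out, 34 with the caller's own threshold and 36 at Leiden resolution 2. With another clustering seed they numbered 46, ratios between haemoglobin bins included. A lower count can thus come from pairs no longer measured. The share of all genes past 1.5-fold or 3-fold was not computed. The 10 called lower became 6 at 200 UMIs and 17 with no minimum of UMIs.

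At the mitochondrial limit of 10% the log2 ratios of monocyte-like cells turned to −2.67 for Bcl2a1a and −3.29 for Bcl2a1b, and at Leiden resolution 2 to −3.60 and −4.21. Bcl2l11 turned to 0.13 in erythroid-like cells with no minimum of genes, and to 0.18 in neutrophil-like cells named with Csf3r. Between the end haemoglobin bins Bax turned to 0.73 at the 10% limit, 1.11 with no minimum of genes and 1.10 at Leiden resolution 2, and without the Rrm2-led cluster it stood at 32.8 non-Hb CPM in the highest bin and 17.3, or 1 UMI, in the lowest. The causes were not tested.

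The Bcl2l1 log2 ratio between those bins, 4.5, became 1.07 at the 10% limit, 1.5 with no minimum of genes, 1.5 at Leiden resolution 2, 4.07 with another clustering seed and 4.08 with members eligible for clustering. It was 2.74 with bins of equal cells, 2.43 as CPM of all UMIs and 2.40 as a mean over cells. Chosen after seeing the data, it was 1.35 without the Rrm2-led cluster and 2.38 over the 10 to 30% bin. Members higher in the highest bin numbered 1, not 2, as CPM of all UMIs or without that cluster. Members lower there numbered 0, not 1, at the 10% limit, with no minimum of genes, at Leiden resolution 2, at 200 UMIs, as a mean over cells or without that cluster, 2 as CPM of all UMIs, and 3 with equal bins or no minimum of UMIs.

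Few UMIs on 1 side limit the ratios: monocyte-like cells labelled E18.5 had 3 of Bcl2l1 and erythroid-like cells labelled E18.5 had 2 of Bbc3 and 10 of Bcl2l11.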
